A study of Mus musculus with 4 samples.

Results

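Type I interferon-stimulated genes were followed through 4 single-cell RNA libraries of mouse hindlimb muscle as a list of 31 members, out of 32285 genes in the count tables. The members were taken by symbol from a fixed list and all 31 were found. Among 7086 deposited barcodes, 6544 were kept with at least 200 genes, at least 500 unique molecular identifiers (UMIs, each counting 1 captured RNA molecule) and at most 20% mitochondrial UMIs. The members held 108876 of the 28885397 UMIs in those barcodes.

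The animals were male C57Bl/6J mice that were 5 weeks old when one hindlimb received 3 X-ray fractions of 8.2 Gy, with the rest of the body under lead. The opposite, shielded limb of the irradiated animals was the control, so no group came from animals that were never irradiated. Limbs were taken 24 hours after the last fraction or 56 days after irradiation, and cells from 3 limbs were pooled into 1 library per group after sorting of live, nucleated single cells. Each of the 4 groups is therefore 1 library without a replicate. No difference was tested, and every interval below is an exact 95% interval that covers counting error only. Values given as 4 in a row are in the order control at 24 hours, irradiated at 24 hours, control at 56 days and irradiated at 56 days. The libraries kept 1336, 2539, 1700 and 969 cells at medians of 3468, 3057, 3627 and 3465 UMIs per cell. Cdkn1a, a p53 target that rises in irradiated cells, stood at 165.6, 1832.5, 106.5 and 793.2 CPM (the UMIs of a gene over all UMIs, on the usual counts-per-total scale), higher in each irradiated limb than in its control. Between 1 and 3 barcodes were shared by any pair of libraries.

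Type I interferons act through a receptor of the chains Ifnar1 and Ifnar2, the kinases Jak1 and Tyk2, and a complex with Stat2 and Irf9 that binds an interferon response element in the promoters of its targets. The targets make up an antiviral programme: sensors of foreign nucleic acid, proteins that bind viral RNA, the ubiquitin-like Isg15 and its enzymes, and membrane proteins that block entry or release of virus. Vessel lining cells express much of this programme at a basal level, and several members amplify the pathway that induced them.

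The core of the response element can be read in the promoters of several members discussed below, though not of all. RefSeq promoter windows (build GRCm38.p6, the assembly also named mm10) of 300 bases, from 250 before to 50 after the start of transcription, were found for 24 of the 31 members. Rtp4, Ifi27l2a, Ifi204, Zbp1, Usp18, Dhx58 and Parp14 had none. The motif GAAA, any pair of bases, then GAAA, searched on both strands with overlaps counted, were in windows of 14 of those 24 members (58.3%), against 3.99% of the 27025 symbols in the table and 3.44% of its 32851 windows. Among the 8 genes used below to pick responding cells, 5 of the 7 with a window held it. The stretches below end 21 bases before the RefSeq start, run 5′ to 3′ in the direction of the gene, lie in flanking DNA upstream of the first exon, and have each match in capitals. On the other strand the same motif reads TTTC, any pair of bases, then TTTC.

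Isg15 (chr4:156200839-156201018, minus strand): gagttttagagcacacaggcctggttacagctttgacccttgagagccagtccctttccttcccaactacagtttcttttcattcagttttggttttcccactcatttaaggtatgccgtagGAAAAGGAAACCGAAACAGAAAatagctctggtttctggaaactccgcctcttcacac
Ifit1 (chr19:34640689-34640868, plus strand): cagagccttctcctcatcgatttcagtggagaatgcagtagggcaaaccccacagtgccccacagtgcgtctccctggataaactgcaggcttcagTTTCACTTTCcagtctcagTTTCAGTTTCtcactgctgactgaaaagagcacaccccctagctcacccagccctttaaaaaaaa
Ifit3 (chr19:34583329-34583508, plus strand): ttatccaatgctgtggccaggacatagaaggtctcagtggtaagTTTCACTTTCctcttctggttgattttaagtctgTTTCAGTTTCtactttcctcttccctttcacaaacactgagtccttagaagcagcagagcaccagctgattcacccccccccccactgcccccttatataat
Ifit3b (chr19:34607757-34607936, plus strand): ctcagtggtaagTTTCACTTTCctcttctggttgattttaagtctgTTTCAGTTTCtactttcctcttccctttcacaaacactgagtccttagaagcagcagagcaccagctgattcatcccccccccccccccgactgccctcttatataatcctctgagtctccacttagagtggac
Rsad2 (chr12:26456473-26456652, minus strand): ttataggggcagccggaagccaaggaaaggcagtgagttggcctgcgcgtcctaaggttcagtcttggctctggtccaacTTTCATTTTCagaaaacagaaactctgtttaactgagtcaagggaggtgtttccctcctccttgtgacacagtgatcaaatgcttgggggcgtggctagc
Bst2 (chr8:71537493-71537672, minus strand): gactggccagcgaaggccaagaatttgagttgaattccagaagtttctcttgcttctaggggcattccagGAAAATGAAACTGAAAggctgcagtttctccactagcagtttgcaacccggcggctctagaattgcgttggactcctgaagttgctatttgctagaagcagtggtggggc

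Isg15 held 3 overlapping matches, first bases at 78, 72 and 66 bases before the start, and Bst2 held 2 that overlap. Ifit1, Ifit3 and Ifit3b each held the matches TTTCACTTTC and TTTCAGTTTC, in that order, and Rsad2 held 1. Ifit3 and Ifit3b are near-identical copies, so UMIs can be misassigned between them. The same caution holds for Ifi203 with Ifi204, for Oas1a within its family and for Ifi27l2a. In Stat2, Irgm1, Oas1a, Ifi203 and Trim30a a match also lay before the start. In Ddx58, Ifih1 and Ifitm3 the match lay only after it. Irf7, Irf9, Ifit2, Cmpk2, Oasl2, Herc6, Ifi44, Ifi47, Ifi35 and Xaf1 had none in these windows. A match is a description of letters, and binding was not measured. The 4 Ifit members lie close together on chromosome 19, from 34550694 (start of Ifit2) to 34650009 (end of Ifit1). Rsad2 (chromosome 12, 26442746 to 26456452, minus strand) and Cmpk2 (chromosome 12, 26469204 to 26479837, plus strand) are neighbours that point away from each other. Isg15 lies on chromosome 4 from 156199424 to 156200818 on the minus strand.

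Cells were placed in classes by counting UMIs of fixed marker genes, none of which is a list member, and 5679 of the 6544 cells fell in 1 of 13 classes. A cell needed at least 3 UMIs over at least 2 markers of a class and at least 3 times the marker UMIs of any other class. A class is described only where both libraries of a comparison held at least 25 cells. Endothelial-gated cells, which line vessels, were the most numerous class, with 468, 1489, 793 and 473 cells, or 35.03%, 58.6%, 46.6% and 48.8% of kept cells. Their 10 markers, among them Cdh5, the junction protein of vessel lining cells, summed to 14271, 13278, 14395 and 12980 CPM. Single markers differed more between libraries, the controls included. Cdh5 was at 2055, 1998, 2024 and 1979 CPM, but Cldn5 at 1552, 876, 874 and 1006 and Pecam1 at 1081, 1464, 1538 and 1346. Kdr was at 1417, 1151, 1612 and 1169 CPM and Ptprb at 1668, 2176, 2317 and 1714. The part of such differences in the ratios below was not tested. The gate used these same markers, so their level describes the class and supports nothing further.

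Over all kept cells pooled, the 31 members summed to 2945, 4203, 2883 and 5602 CPM. The irradiated library was 1.43 times the control (1.40 to 1.45) at 24 hours and 1.94 times (1.91 to 1.98) at 56 days. Among single members, 9 stood 1.5-fold or more above control and 2 that far below at 24 hours, beside 34.1% and 10.8% of all genes, and 17 and 0 at 56 days, beside 17.3% and 12.5%. The first of these ratios was not found within endothelial cells, which hold most member UMIs: there the list summed to 6422, 5436, 5455 and 8273 CPM. The endothelial ratio of irradiated to control was 0.846 (0.828 to 0.865) at 24 hours and 1.52 (1.48 to 1.55) at 56 days. Endothelial cells made up 58.6% of the irradiated library at 24 hours and 35.03% of its control, so the pooled 24-hour value carries a difference in the share of this class as well as in its level.

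The 2 control libraries also differed from each other. Endothelial cells of the 56-day control had 0.849 times (0.829 to 0.871) the list level of the 24-hour control, and the irradiated library at 24 hours (5436 CPM) lay beside the 56-day control (5455 CPM). Without Ifitm3 and Bst2, the pair of members with the most UMIs, the control ratio was 1.02 (0.984 to 1.06), the 24-hour ratio 0.767 (0.740 to 0.795) and the 56-day ratio 1.40 (1.36 to 1.45). The 8 genes that pick responding cells gave 0.574 (0.536 to 0.616) at 24 hours and 1.64 (1.54 to 1.74) at 56 days. Each control serves 1 comparison only, and what part of a ratio comes from its control library was not tested.

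At 24 hours, 12 of the 31 members were at least 1.5-fold lower in irradiated endothelial cells and 0 were at least 1.5-fold higher. Among all 10923 genes with at least 20 summed UMIs, 6.75% were that far lower and 15.1% that far higher. The median log2 ratio of the members was -0.48 beside 0.07 for all genes. At 56 days, 13 members stood 1.5-fold or more above control and 0 that far lower, beside 12.7% and 12.2% of 10169 genes, with medians of 0.47 and 0.03. All 31 members passed the count minimum in both comparisons. Between the controls, 2 members were that far higher and 4 that far lower at 56 days, beside 12.5% and 9.79% of all genes.

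**Figure D1:**
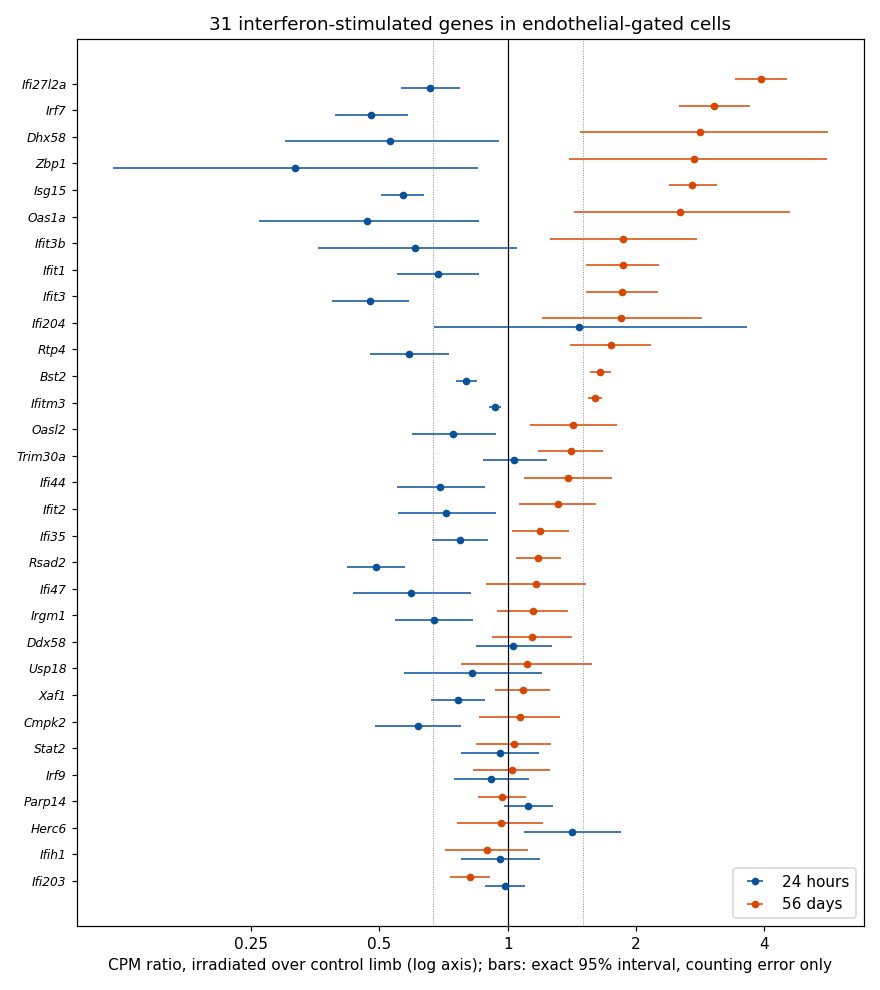
CPM ratio of irradiated over control limb for each of the 31 members in endothelial-gated cells, at 24 hours (blue) and 56 days (orange), on a log axis; points are ratios of summed UMIs, bars exact 95% intervals for counting error, dotted lines 1.5-fold. At 24 hours 12 members lie at least 1.5-fold below control and 0 above, and at 56 days 13 lie above and 0 below.

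Among the transcription factors of the list, Irf7 differed between limbs by more than counting error at both times. Irf7, which drives production of interferon alpha and amplifies the response, stood at 101.5, 48.5, 59.6 and 181.7 CPM in endothelial cells. The irradiated level was 0.478 times (0.393 to 0.582) control at 24 hours and 3.05 times (2.52 to 3.71) at 56 days. Stat2 was at 71.1, 68.1, 87.4 and 90.3 CPM, and Irf9 at 78.7, 72.0, 84.4 and 86.1 CPM. The 4 ratios of these subunits of the complex that binds the interferon response element ran from 0.914 to 1.03, and each interval included 1.

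The Isg15 system was uneven as well. Isg15, the ubiquitin-like protein attached to other proteins, stood at 267.1, 151.3, 135.9 and 368.6 CPM, a ratio of 0.567 (0.505 to 0.637) at 24 hours and 2.71 (2.38 to 3.09) at 56 days. Its level in the 56-day control was 0.509 times (0.442 to 0.586) that in the 24-hour control. Usp18, which removes Isg15 and restrains the interferon receptor, was at 24.5, 20.2, 28.3 and 31.3 CPM, with ratios of 0.823 (0.572 to 1.21) and 1.11 (0.775 to 1.58). Herc6, the mouse ligase that attaches Isg15, was at 42.6, 60.1, 69.5 and 66.8 CPM, and its 24-hour interval (1.41, 1.09 to 1.85) was the one that lay above 1 in the list.

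The Ifit proteins bind foreign RNA and block its translation. Ifit3 was at 92.1, 43.8, 70.6 and 131.0 CPM and Ifit1 at 70.6, 48.3, 68.7 and 127.9 CPM. Their ratios were 0.476 (0.387 to 0.586) and 0.684 (0.550 to 0.856) at 24 hours, and 1.86 at 56 days for both (1.53 to 2.26 and 1.53 to 2.27). Ifit3b had far fewer UMIs, at 13.4, 8.1, 17.9 and 33.4 CPM, and the same 56-day ratio of 1.86 (1.26 to 2.77). Ifit2 was at 49.0, 35.2, 72.5 and 95.02 CPM, with ratios of 0.718 (0.552 to 0.939) and 1.31 (1.06 to 1.61).

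The enzymes Rsad2, Cmpk2, Oas1a and Oasl2 had intervals below 1 at 24 hours, and at 56 days all but that of Cmpk2 lay above 1. Rsad2, which makes a chain-ending nucleotide, stood at 152.8, 74.9, 219.2 and 258.4 CPM, with a ratio of 0.490 (0.419 to 0.575) at 24 hours and 1.18 (1.04 to 1.33) at 56 days. Its neighbour Cmpk2, a mitochondrial nucleotide kinase, was at 65.9, 40.5, 74.8 and 79.9 CPM, with ratios of 0.615 (0.488 to 0.779) and 1.07 (0.858 to 1.33). Oas1a, an oligoadenylate synthetase, was at 12.2, 5.7, 7.6 and 19.3 CPM, with ratios of 0.468 (0.261 to 0.858) and 2.53 (1.43 to 4.60). Oasl2 of the same family was at 65.3, 48.7, 54.6 and 77.8 CPM, with ratios of 0.745 (0.595 to 0.938) and 1.42 (1.12 to 1.80).

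The sensors of nucleic acid differed among themselves. The RNA helicases Ddx58 and Ifih1 were at 72.3, 74.6, 71.4 and 81.4 CPM and at 69.4, 66.4, 77.9 and 69.4 CPM, and their 4 ratios lay between 0.891 and 1.14 with intervals that included 1. Dhx58, a helicase without the signalling domain of these 2, was at 12.2, 6.5, 5.7 and 16.2 CPM, with ratios of 0.529 (0.299 to 0.956) and 2.83 (1.48 to 5.63). Zbp1, which binds left-handed nucleic acid, was at 5.8, 1.9, 5.3 and 14.6 CPM, with ratios of 0.317 (0.119 to 0.849) and 2.73 (1.39 to 5.62). Dhx58 and Zbp1 rest on few UMIs. Ifi203 of the PYHIN family was at 258.9, 254.4, 356.6 and 290.8 CPM, and at 56 days it was lower in the irradiated limb (0.815, 0.733 to 0.907). Its relative Ifi204 was at 4.7, 6.8, 15.3 and 28.2 CPM.

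The membrane proteins Ifitm3, which blocks fusion of virus in endosomes, and Bst2, which tethers budding virus, held the most UMIs of the list. Ifitm3 stood at 2880, 2683, 2097 and 3360 CPM, with ratios of 0.932 (0.902 to 0.962) and 1.60 (1.54 to 1.66). Bst2 stood at 1054, 843.5, 812.9 and 1341 CPM, with ratios of 0.800 (0.757 to 0.845) and 1.65 (1.56 to 1.75). In both, the 24-hour control and the irradiated 24-hour library lay above the 56-day control.

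The largest 56-day ratio in endothelial cells was that of Ifi27l2a, a small hydrophobic protein induced by interferon, at 133.0, 87.5, 104.6 and 409.8 CPM. It was 0.658 times (0.561 to 0.774) control at 24 hours and 3.92 times (3.41 to 4.51) at 56 days. Rtp4, a chaperone of receptors at the cell surface, was at 79.9, 46.8, 58.4 and 101.8 CPM, with ratios of 0.586 (0.474 to 0.727) and 1.74 (1.40 to 2.17). The immunity-related GTPases Irgm1 and Ifi47 were lower at 24 hours, at 0.669 (0.544 to 0.827) and 0.594 (0.432 to 0.822), and near control at 56 days, at 1.14 (0.942 to 1.39) and 1.17 (0.889 to 1.53). Of the others, Ifi44, Ifi35 and Xaf1 had 24-hour ratios of 0.695, 0.770 and 0.763 with intervals below 1, and 56-day ratios of 1.39, 1.19 and 1.08. Parp14, an ADP-ribosyltransferase, had ratios of 1.12 and 0.968 with intervals that included 1. Trim30a, of the tripartite motif family, was at 1.04 (0.872 to 1.23) and 1.40 (1.18 to 1.67).

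The pathway above the members was counted from a separate list of 39 symbols, of which 37 were found and 22 had at least 20 UMIs in endothelial cells. At 24 hours 2 stood 1.5-fold or more above control and 1 that far lower, beside 15.1% and 6.75% of all genes, and at 56 days 2 were higher and 0 lower, beside 12.7% and 12.2%. No UMI of the 9 ligand genes (Ifnb1, Ifna1, Ifna2, Ifna4, Ifnk, Ifne, Ifnl2, Ifnl3 and Ifng) was found in endothelial cells. Over all kept cells, Ifnb1, the 3 alpha genes, Ifne, Ifnl2 and Ifnl3 had 0 UMIs in every library, Ifnk had 1 in total, and Ifng, the type II interferon, had 12, 19, 10 and 11. At this depth a count of 0 allows up to 0.660 CPM (3 counts) in the irradiated 56-day library, the one with the fewest UMIs, so absence cannot be read from it.

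The receptor chains Ifnar1 and Ifnar2 and the kinase Tyk2 had intervals that included 1 at both times. Ifnar1 ratios were 1.22 (0.984 to 1.52) and 0.831 (0.669 to 1.03), and those of Ifnar2 0.916 (0.808 to 1.04) and 1.04 (0.900 to 1.197). Tyk2 was at 1.16 (0.793 to 1.74) and 1.28 (0.871 to 1.87), and Jak1 at 1.08 (0.948 to 1.23) and 0.780 (0.683 to 0.890). Ifngr2, a chain of the interferon gamma receptor, was higher at both times, by 1.59 (1.19 to 2.17) and 1.84 (1.24 to 2.76). Ifngr1, the other chain, was at 1.06 (0.959 to 1.17) and 0.990 (0.892 to 1.10).

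Among other pathway genes, Tlr3, a sensor of double-stranded RNA, was at 1.61 (1.14 to 2.33) and 0.698 (0.484 to 0.995). Adar, which edits double-stranded RNA, was at 1.17 (0.874 to 1.57) and 1.61 (1.18 to 2.19). Mavs, the adaptor of the RNA helicases, was at 0.635 (0.385 to 1.07) and 1.43 (0.771 to 2.65), and Tmem173, the adaptor of DNA sensing, at 0.847 (0.648 to 1.12) and 1.25 (0.887 to 1.77). The kinase Tbk1 was at 0.955 and 1.05 and the DNA sensor Cgas at 0.925 and 0.855, with intervals that included 1. The factor Irf1 was at 1.14 and 0.817, and Irf2 at 1.16 and 0.699. Their 56-day intervals lay below 1 (0.691 to 0.964 and 0.598 to 0.816). Irf3 was at 1.04 and 1.26. The brakes Socs1 and Socs3 were at 0.740 and 1.15 and then 1.42 and 1.03. Samhd1 was below control at both times, at 0.754 (0.634 to 0.900) and 0.812 (0.684 to 0.961). The effector Eif2ak2 was at 1.04 at 24 hours and 0.872 at 56 days. Irf8, of the same factor family as Irf7, was at 1.31 and 1.37.

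To separate how many cells responded from how strongly they did, each cell was reduced at random to 1000 UMIs, which removed differences of depth and left out shallower cells. A cell was called interferon-high with at least 3 UMIs over at least 2 of Isg15, Ifit1, Ifit2, Ifit3, Ifit3b, Rsad2, Cmpk2 and Usp18. This is a range of a score and not a cell type. The other 23 members took no part in the choice and were read in both kinds of cell.

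High cells numbered 34 of 404, 44 of 1275, 47 of 682 and 48 of 417 endothelial cells. Their shares were 8.42% (5.90 to 11.6), 3.45% (2.52 to 4.61), 6.89% (5.11 to 9.06) and 11.5% (8.61 to 15.0). The 24-hour irradiated share lay below its control with intervals that did not overlap, and the 56-day irradiated share lay above its control with intervals that overlapped slightly. The ratio of shares was 0.410 at 24 hours and 1.67 at 56 days. Unthinned cells gave shares of 22.4%, 11.7%, 19.5% and 29.2%. Cells with 2 of the 3 UMIs needed numbered 26, 46, 49 and 23, and so many cells lay near the limit. As a reference for free RNA, B cells had a UMI of the 8 genes in 2.10%, 2.02%, 5.41% and 3.23% of cells and T or NK cells in 5.04% and 0% at 24 hours, against 37.4%, 20.5%, 34.2% and 39.1% of endothelial cells. In barcodes rich in muscle fibre RNA, 0 of 50 and 0 of 126 at 24 hours were high, and 2.00% and 0.794% had any UMI of the 8 genes, and at 56 days 0% and 4.55% of 22 and 22. Those barcodes were shallow, with medians of 1114 and 1529 UMIs before thinning, against 3284 and 3056.

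The 8 genes did not contribute alike. Of the 173 high endothelial cells in all 4 libraries, 134 had an Isg15 UMI, 98 an Rsad2 UMI and 79 an Ifit1 UMI, whereas Usp18 was found in 32 and Ifit3b in 24. High cells held 53.3%, 46.5%, 50.5% and 69.0% of all UMIs of the 8 genes in the class, a share that the choice of cells by these genes raises.

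The 23 members outside the choice were higher in high cells in every library. They averaged 11.2 (10.1 to 12.4), 12.1 (11.1 to 13.2), 10.2 (9.28 to 11.1) and 14.5 (13.4 to 15.6) UMIs per 1000 in high cells. In the remaining cells they averaged 5.26 (5.03 to 5.50), 4.57 (4.45 to 4.69), 4.17 (4.01 to 4.33) and 6.08 (5.83 to 6.34). The mean was above that of the remaining cells for 21, 21, 21 and 23 of the 23 members. Of the members with at least 20 UMIs, 13 of 17, 18 of 19, 16 of 19 and 17 of 19 had an interval above 1, beside 3.02%, 2.86%, 3.68% and 3.8% of all genes, and 0 had one below 1, beside 1.23%, 1.12%, 1.23% and 2.01%. The spread between members was wide. Ifitm3 was 1.67, 1.57, 1.54 and 1.77 times as high in high cells and Bst2 1.93, 2.58, 2.30 and 2.11 times, whereas Ifi44 was 4.26, 12.8, 15.9 and 8.65 times and Oasl2 4.99, 3.33, 9.40 and 6.66 times. Irf7 stood between them, at 3.74, 8.27, 3.50 and 4.44 times.

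The other 23 members were higher with each added UMI of the 8 genes. In the 24-hour control, cells with 0, 1, 2 and at least 3 UMIs of the 8 genes averaged 4.68, 6.22, 7.54 and 10.8 UMIs of the other 23. In the irradiated 24-hour library the same 4 bins averaged 4.26, 5.57, 6.93 and 11.6, in the 56-day control 3.89, 4.56, 5.67 and 9.78, and in the irradiated 56-day library 5.56, 6.79, 8.48 and 14.3. The bins of 2 UMIs held 23 to 49 cells and are the least certain. Every bin mean of the irradiated 56-day library was above the same bin of the other 3 libraries, the bin with no UMI of the 8 genes included. Intervals overlapped the 24-hour control in the bins of 1 UMI (6.26 to 7.35 and 5.71 to 6.76) and 2 UMIs (7.33 to 9.76 and 6.52 to 8.67). In the bin of 2 UMIs they also overlapped the irradiated 24-hour library (6.19 to 7.74).

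**Figure D2:**
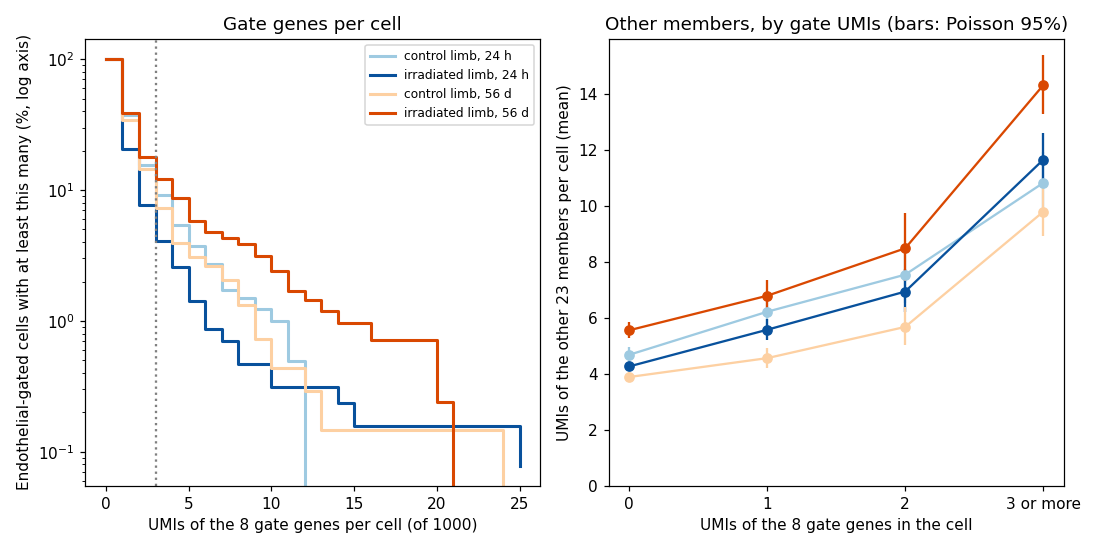
Left, percentage of endothelial-gated cells with at least a given number of UMIs of the 8 gate genes after thinning to 1000 UMIs (log axis; dotted line, the 3 UMIs needed for a high cell). Right, mean UMIs per cell of the other 23 members against gate UMIs, with Poisson 95% bars. The mean of the irradiated 56-day library lies highest in every bin, with bars that overlap the 24-hour control in the bins of 1 and 2 UMIs.

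At this cut, most of the difference in the other 23 members lay outside the cells called high. Unthinned, 22.4%, 11.7%, 19.5% and 29.2% of cells met the rule, so responding cells can lie among the remaining ones. Such cells add to the part of the remaining cells, and their number was not measured. At 24 hours the mean over all endothelial cells was 4.83 UMIs in the irradiated and 5.76 in the control library, a difference of -0.93. Split by the share of high cells and the level in each kind, -0.33 of it (35.9%) came with the share, 0.05 (-5.83%) with the level in high cells and -0.65 (70.0%) with the level in the remaining cells. At 56 days the means were 7.05 and 4.58, a difference of 2.47. Of it 0.33 (13.5%) came with the share, 0.40 (16.1%) with the level in high cells and 1.74 (70.4%) with the remaining cells. Most of this last part came from Ifitm3, Bst2 and Ifi27l2a. In the remaining cells, control then irradiated, Ifitm3 averaged 1.86 and 2.85 UMIs, Bst2 0.732 and 1.19 and Ifi27l2a 0.0803 and 0.393. A split without Ifi27l2a was not made. Without Ifitm3 and Bst2 the share of high cells weighed more: it came to 51.4% of the difference at 24 hours, with 69.9% from the remaining cells and -21.3% from high cells, and to 27.7% at 56 days, with 56.2% from the remaining cells.

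Within high cells, the ratio of irradiated to control for these 23 was 1.08 (0.947 to 1.24) at 24 hours and 1.43 (1.27 to 1.61) at 56 days. Within the remaining cells it was 0.869 (0.825 to 0.915) and 1.46 (1.38 to 1.54). High cells at 24 hours thus made up a smaller share of the irradiated library, while each carried a level that did not differ from control beyond counting error. Without Ifitm3 and Bst2 that level was above control, at 1.29 (1.06 to 1.58).

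Single members in the remaining cells differed unevenly. At 56 days Ifi27l2a was 4.89 times (3.53 to 6.87) control, Irf7 2.87 times (1.74 to 4.81), Rtp4 1.98 times (1.14 to 3.44), Bst2 1.63 times (1.43 to 1.86), Ifitm3 1.53 times (1.41 to 1.67) and Ifi35 1.47 times (1.04 to 2.08). These were the 6 of 19 with at least 20 UMIs whose interval lay above 1, and 0 lay below, beside 9.8% and 8.72% of all genes. Ifi27l2a UMIs were found in 16.8% of the remaining irradiated cells and 5.83% of the control ones. The high cells held 17.6% of Ifi27l2a UMIs in the irradiated 56-day library but 52.9% of those of Ifi44. At 24 hours 7 of the 19 lay below 1 in the remaining cells, among them Irf7 (0.413, 0.256 to 0.673), Rtp4 (0.431, 0.264 to 0.711) and Ifi44 (0.457, 0.263 to 0.811), and 0 lay above, beside 7.2% and 8.66% of all genes.

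The gate on marker UMIs itself limits markers of other classes in these cells. Macrophage, neutrophil and T or NK cell markers summed to 0 CPM in the high cells of 3 of the 4 libraries and to at most 15.4 CPM in the 56-day control (T or NK cell markers 5.13 CPM, against 0.427 CPM in remaining cells), beside endothelial markers of 13331 to 14484 CPM. B cell markers were at 0, 5.49, 10.3 and 0 CPM in high and 7.78, 20.1, 2.56 and 12.1 CPM in remaining cells. FAP markers were at most 11.0 CPM in high cells. Pericyte and smooth muscle markers were at 159.9 to 336.7 CPM in high and 180.6 to 381.7 CPM in remaining cells. Median depth before thinning was 3314.5, 3083.5, 3912 and 3862 UMIs in high and 3900.0, 3494, 3236 and 3795 in remaining cells. Cdkn1a, the marker of the radiation response, was 1.19 (0.869 to 1.61), 1.06 (0.962 to 1.16), 1.60 (1.16 to 2.16) and 0.890 (0.787 to 1.00) times as high in high as in remaining cells, with intervals that included 1 in both irradiated libraries.

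Genes outside the list that marked high cells were ranked by the smallest lower bound of their ratio of high over remaining cells in the 4 libraries. Among the first 10 were Oasl1, Eif2ak2, Rnf213, Gbp7, Phf11d, Slfn9, Gbp3, Gbp2 and Parp9. Oasl1, an oligoadenylate synthetase relative, was 9.05, 39.3, 12.0 and 19.1 times as high, on 9 to 24 UMIs in high cells. Eif2ak2, the RNA-activated kinase that halts translation, was 4.69, 5.00, 4.37 and 6.498 times as high. The guanylate-binding protein Gbp7 was at 3.08, 3.52, 2.80 and 2.97 times. These ratios describe the cells chosen and are not a test.

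Other classes were compared in the same way. Among control libraries with at least 25 cells of a class, the list was highest in macrophages and endothelial cells, and fibre-rich barcodes were lowest at 25.1, 66.7, 108.5 and 97.2 CPM.

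**Figure D3:**
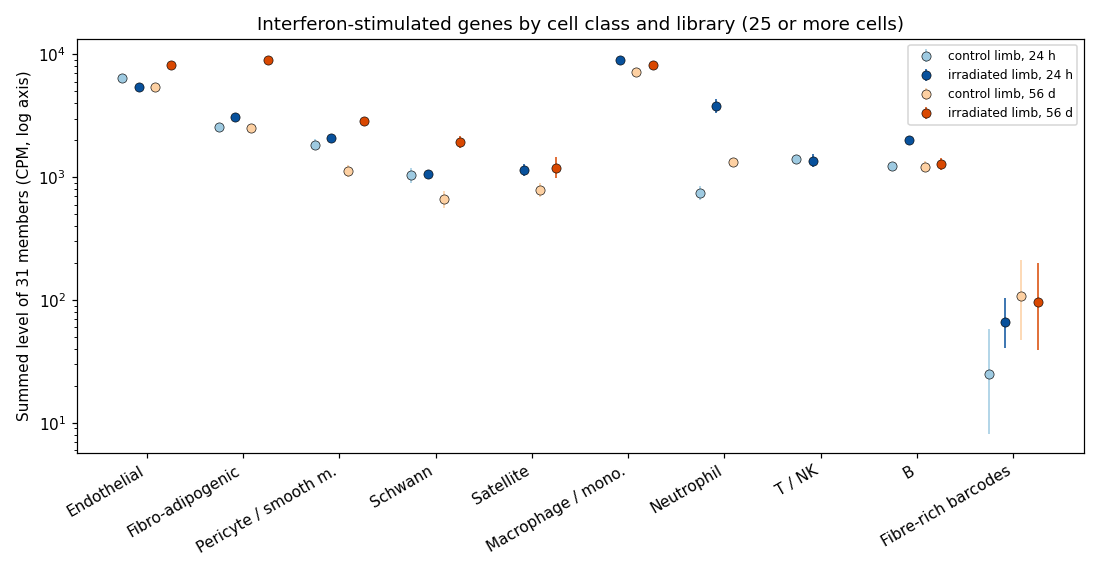
Summed CPM of the 31 members (log axis) by marker-gated class and library, with exact Poisson 95% bars, for libraries with at least 25 cells of a class. In the pooled sum, fibro-adipogenic cells of the irradiated limb at 56 days (9021 CPM) reach the endothelial level (8273 CPM). Their control is at 2515 CPM. After thinning, where each cell counts equally, these irradiated cells lie below endothelial cells of the same library. There the 8 gate genes average 0.639 UMIs in fibro-adipogenic cells and 1.11 in endothelial cells.

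Fibro-adipogenic progenitors (FAPs), the connective tissue cells of muscle, had the highest 56-day ratio of the summed list among the classes compared. The 44, 69, 93 and 39 FAPs carried 2547, 3093, 2515 and 9021 CPM of the list, a ratio of 3.59 (3.36 to 3.83) at 56 days. That order did not hold without Ifitm3 and Bst2, where the ratio was 3.65 in FAPs and 3.86 in pericytes and smooth muscle cells, with overlapping intervals. Nor did it hold after thinning, where each cell counts equally. There the other 23 members averaged 2.22 and 5.89 UMIs in FAPs at 56 days, control then irradiated. They averaged 1.09 and 2.91 in pericytes and smooth muscle cells and 0.508 and 1.56 in Schwann cells. Endothelial cells of the irradiated library at 56 days averaged 7.05 UMIs of these members, above the 5.89 of FAPs. FAP markers differed between the 56-day libraries, control then irradiated. Pi16 was at 2223 and 1026 CPM, Mfap5 at 2116 and 1382, Smoc2 at 2042 and 1412, Dpt at 1296 and 799.6 and Pdgfra at 671.2 and 443.2. Col1a1 was at 3116 and 4176 CPM, Lum at 1275 and 1534 and Clec3b at 2226 and 2238. The part of these markers in the ratio was not tested. Of the 25 members with at least 20 UMIs, 19 stood 1.5-fold or more above control and 1 that far lower, beside 16.5% and 20.1% of 6221 genes. The median log2 ratio was 1.44, beside -0.01 for all genes. Isg15 was at 3.8, 54.1, 19.2 and 352.0 CPM, 18.4 times (9.96 to 37.0) control at 56 days. Irf7 was 13.3 times (6.41 to 30.97), Ifit3 13.2 times (7.36 to 25.4), Ifit1 8.50 times (4.76 to 15.99), Bst2 6.88 times (5.12 to 9.34) and Ifi27l2a 4.65 times (3.99 to 5.43) control. Zbp1 was at 6.80 (3.15 to 15.9) and Ifitm3 at 3.21 (2.90 to 3.56).

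Several FAP members, the helicase sensors among them, had no difference beyond counting error at 56 days. Ifih1 (1.19, 0.629 to 2.15), Ddx58 (1.197, 0.531 to 2.52), Parp14 (1.00, 0.501 to 1.89), Irgm1 (1.09, 0.414 to 2.58) and Herc6 (1.36, 0.504 to 3.37) had intervals that included 1. Ifi204, at 140.7, 143.0, 153.4 and 95.6 CPM, was the 1 member lower (0.623, 0.373 to 0.998). Only 2 of 36 irradiated FAPs were interferon-high (5.56%, 0.680 to 18.7), against 0 of 86 in the control, which allows up to 3.49% (3 counts). In the remaining cells the other 23 members were 2.42 times (1.97 to 2.98) control, so the difference was present outside the cells called high at this cut. Endothelial markers in FAPs stood at 19.2 and 26.1 CPM at 56 days.

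At 24 hours the FAP ratio of 1.21 (1.11 to 1.33) depended on how cells were weighted: it was 0.989 with each cell weighted equally and 1.06 without cells holding an endothelial UMI. Of 14 members measured, 10 stood 1.5-fold or more above control and 0 lower, beside 20.1% and 10.5% of all genes. Isg15 rested on 1 UMI in the control. In the remaining cells the other 23 were at 0.965 (0.745 to 1.26).

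Pericytes and smooth muscle cells, which wrap vessels, carried 1846, 2102, 1119 and 2876 CPM in 49, 166, 59 and 76 cells. The 56-day ratio was 2.57 (2.26 to 2.92), with 7 of 8 members measured 1.5-fold or more above control and 0 that far below, beside 17.2% and 14.7% of genes. Ifi27l2a was at 86.4, 99.0, 25.3 and 352.7 CPM, 14.0 times (6.59 to 35.4) control, and Isg15 at 40.7, 91.9, 21.7 and 228.2 CPM, 10.5 times (4.65 to 29.5). At 56 days these rest on 7 and 136 UMIs and on 6 and 88, control then irradiated. Both reached the count minimum through the irradiated library, so the number of members higher is partly set by that minimum. Bst2 was 3.97 times (2.42 to 6.85) and Ifitm3 1.86 times (1.58 to 2.20) control. Marker levels within the class differed between the libraries at 56 days: the pericyte gene Rgs5 was at 6424 CPM in the control and 4154 CPM in the irradiated library and Abcc9 at 704.1 and 316.4 CPM, and the smooth muscle genes Acta2 and Tagln were at 11916 and 15599 CPM and at 8464 and 12113 CPM. Their part in the ratio was not tested. Endothelial markers were present in these cells at 814, 1015, 274 and 345 CPM. Leaving out cells with any such UMI kept 20, 36, 18 and 27 cells, and the 56-day ratio was then 3.34. Both control counts are under the minimum of 25 cells, and the part of endothelial RNA in the ratio was not tested. The 24-hour ratio of 1.14 (1.01 to 1.28) became 0.907 without those cells, 0.831 with cells weighted equally and 0.994 under a stricter gate. Its direction is therefore not given. At 24 hours 6 of 11 members stood 1.5-fold or more above control and 1 lower, beside 17.8% and 15.6%. Without Ifitm3 and Bst2 the 24-hour ratio was 1.81 and the 56-day ratio 3.86.

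Schwann cells, the glia of nerves, carried 1038, 1060, 663 and 1943 CPM in 53, 134, 65 and 54 cells. The 56-day ratio was 2.93 (2.43 to 3.54), with 4 of 6 members 1.5-fold or more above control and 0 that far below, beside 14.8% and 16.2% of genes. Ifi27l2a was at 47.2, 7.0, 28.1 and 449.2 CPM, 15.96 times (7.41 to 40.9) control, with Isg15 at 6.06 (2.00 to 24.6), Bst2 at 4.76 (2.53 to 9.61) and Ifitm3 at 3.01 (2.17 to 4.22). At 56 days Ifi27l2a had 7 and 83 UMIs and Isg15 4 and 18, control then irradiated. Both reached the count minimum mainly through the irradiated library, so the number of members higher is partly set by that minimum. Ifit2 was at 0.808 (0.360 to 1.73). At 24 hours the ratio was 1.02 (0.874 to 1.197). In that control 98.3% of Isg15 and 100% of Rsad2 UMIs were in a single cell, and without the top cell of each library the ratio was 1.46. Without Ifitm3 and Bst2 it was 0.753. Here 4 of 9 members were higher and 2 lower, beside 26.1% and 10.9%.

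Ifi27l2a, Bst2, Isg15 and Ifitm3 were thus higher in the irradiated limb at 56 days in endothelial cells, FAPs, pericytes and smooth muscle cells, and Schwann cells, with every interval above 1. These intervals do not cover the spread between cells. After thinning, median UMIs of the other 23 members, control then irradiated, were 4 and 6 in endothelial cells and 2 and 5 in FAPs. They were 1 and 1 in pericytes and smooth muscle cells (means 1.09 and 2.91) and 0 and 0 in Schwann cells (means 0.508 and 1.56). Satellite cells, the muscle stem cells, had only Ifitm3 and Bst2 measured at 56 days, in 67 and 25 cells. Ifitm3 was at 460.4 and 822.7 CPM (1.79, 1.33 to 2.38) and Bst2 at 46.0 and 66.7 CPM (1.45, 0.461 to 3.95). Both were at least 1.5-fold higher with the prior count of 0.5, beside 17.1% of genes higher and 21.4% lower. The list ratio was 1.52 (1.204 to 1.91), and 1.10 without these genes.

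Macrophages and monocytes, with 51 and 42 cells at 56 days, carried 7141 and 8247 CPM, a ratio of 1.15 (1.09 to 1.22). This ratio rests on Ifi27l2a, which differed by more than the whole list did. The other members together were not above control. Of 26 measured, 4 stood 1.5-fold or more above control and 9 lower, beside 10.6% and 25.2% of 4633 genes. The median log2 ratio was -0.17 for the members and -0.17 for all genes. Ifi27l2a was at 1302 and 2593 CPM (1.99, 1.78 to 2.23), Bst2 at 208.5 and 377.2 CPM (1.81, 1.35 to 2.44) and Irf7 at 72.2 and 125.7 CPM (1.74, 1.04 to 2.95). Lower were Oasl2 (0.447, 0.249 to 0.771), Parp14 (0.455, 0.286 to 0.707), Ifih1 (0.436, 0.188 to 0.928), Ifi203 (0.546, 0.407 to 0.727) and Ifi204 (0.549, 0.383 to 0.777). Isg15 was at 104.2 and 116.3 CPM (1.12, 0.692 to 1.80). In the 24-hour irradiated library 40 macrophages carried 8980 CPM, but their control held too few cells to compare.

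**Figure D4:**
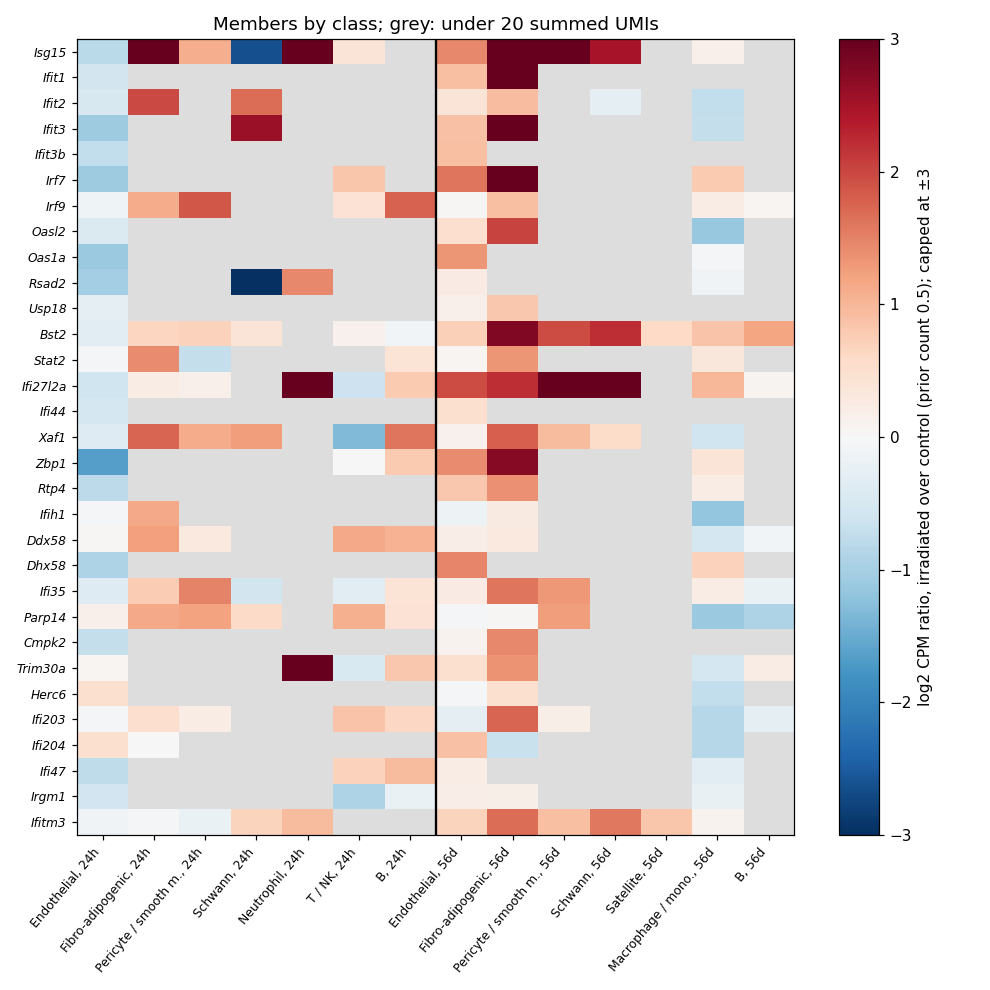
Log2 CPM ratio of irradiated over control for each member (rows) and class (columns), 24 hours left and 56 days right of the line; red is higher, blue lower, colours end at 3 and grey marks members under 20 summed UMIs. Ifi27l2a and Bst2 are higher in the endothelial, FAP, pericyte, Schwann and macrophage columns at 56 days.

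B cells carried 1238, 2026, 1223 and 1294 CPM in 244, 102, 76 and 62 cells. The ratio was 1.64 (1.49 to 1.80) at 24 hours and 1.06 (0.911 to 1.23) at 56 days. At 24 hours 8 of 13 members stood 1.5-fold or more above control and 0 lower, beside 20.9% and 14.1% of genes, and at 56 days 1 of 8 was higher and 1 lower, beside 15.6% and 19.2%. Ifi27l2a was at 535.4 and 927.2 CPM at 24 hours (1.73, 1.50 to 1.99), Irf9 at 23.6 and 81.5 CPM (3.45, 1.92 to 6.30) and Ifi203 at 243.6 and 376.5 CPM (1.55, 1.24 to 1.92). The make-up of the class differed as well: Vpreb1 and Igll1, genes of immature B cells, had 56 and 55 UMIs in the control and 0 and 0 in the irradiated library. Ms4a1, a gene of mature B cells, was at 933.5 and 1779 CPM. Their part in the ratio was not tested. None of 238 and 99 cells was interferon-high, which allows shares up to 1.26% and 3.03%.

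Neutrophils could be compared only at 24 hours, in 30 and 28 cells, with medians of 5844.5 and 1979.5 UMIs. The list was at 743.5 and 3801 CPM (5.11, 4.24 to 6.16), and all 5 members measured stood 1.5-fold or more above control, where 45.3% of all genes were higher and 26.5% lower. Ifi27l2a was at 13.2 and 934.1 CPM (71.0, 26.3 to 269), on 4 and 58 UMIs, and Isg15 at 13.2 and 547.6 CPM (41.6, 14.8 to 161), on 4 and 34. Both reached the count minimum, which sums both libraries, through the irradiated library. The number of members higher is therefore partly set by that minimum, which all genes also had to meet. Camp, a granule gene of immature neutrophils, was at 44380 and 3447 CPM, and Cxcr2, a receptor of mature ones, at 138.2 and 1305 CPM. The change in make-up moves with the ratio and its part was not tested. With cells weighted equally the ratio was 2.88, and without Ifitm3 and Bst2 it was 10.0.

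T and NK cells at 24 hours, 144 in the control and 42 in the irradiated library, did not differ beyond counting error in the list (1419 and 1368 CPM, 0.964, 0.844 to 1.10). Of 14 members 5 stood 1.5-fold or more above control and 3 lower, beside 27.5% and 10.7% of genes. Ifi27l2a was at 670.1 and 430.5 CPM (0.643, 0.508 to 0.804) and Ifi203 at 175.5 and 315.7 CPM (1.80, 1.32 to 2.42). Ifi27l2a was lower by more than the whole list was, so the other members together were above control. Ifitm3 was nearly absent, at 4.9 and 9.6 CPM, against 2880 and 2683 CPM in endothelial cells of the same libraries.

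Interferon-high cells were also found outside the endothelium, in small numbers. In pericytes and smooth muscle cells they were 0 of 43, 2 of 156, 0 of 57 and 3 of 68, and in Schwann cells 1 of 51, 2 of 125, 0 of 59 and 1 of 43. In macrophages they were 3 of 39 in the irradiated 24-hour library, 3 of 46 in the 56-day control and 0 of 42 in its irradiated counterpart (which allows up to 7.14%). Neutrophils had 2 of 26 in the irradiated 24-hour library. Intervals overlapped between the irradiated and control libraries in every one of these classes, so a difference in share was not detectable at these cell numbers.

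**Figure D5:**
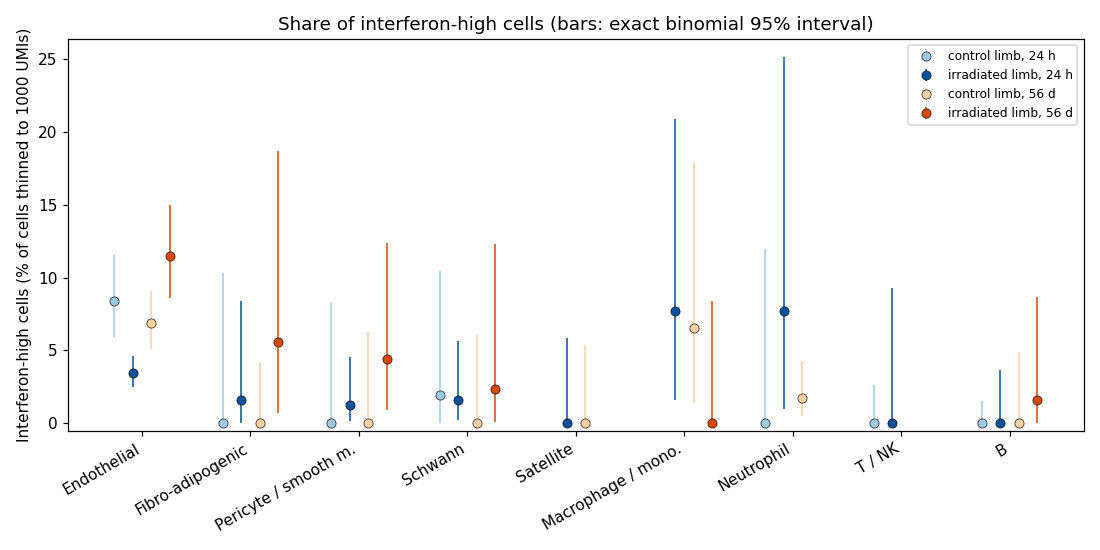
Percentage of cells called interferon-high after thinning to 1000 UMIs, by class and library with at least 25 thinned cells, with exact binomial 95% bars. Endothelial shares (8.42%, 3.45%, 6.89% and 11.5%) have narrow bars, and the bars of the other classes overlap between limbs.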

How the data were processed

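Cells of 4 libraries were sequenced with 10x Genomics 3' version 3 chemistry. UMI counts for 32285 genes were made by the authors with Cell Ranger 5.0.0 on mm10, per the file headers and the submitters' processing notes, and the deposited counts were used unchanged. Doublets and free RNA were not removed, and barcodes whose marker UMIs for the leading class were under 3 times those of another class were left out of classes. UMIs were summed per class and library, scaled to the class total (CPM) and compared as ratios with exact conditional binomial 95% intervals. Levels had exact Poisson and shares exact binomial (Clopper-Pearson) intervals, all for counting error only. A prior count of 0.5 entered log2 ratios and the 1.5-fold counts, over genes with at least 20 summed UMIs. The sum is over both libraries of a comparison, so a gene can pass through the library in which it is higher. In classes with few cells the 1.5-fold counts of members are therefore partly set by this minimum. Thinning used seed 1. Scripts ran in Python 3.11.15 (numpy 2.4.6, scipy 1.17.1, pandas 2.3.3) and were tested on simulated counts. With 1 library per group no test was made.

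All members were named. Pathway genes were named with at least 20 endothelial UMIs or as ligands, and the 10 genes outside the list by the rank stated. Some genes that these rules name are not reported here. Members and lists were chosen with earlier results of these data known. Alternatives covered filters, gates, weighting, scaling, cuts and thinning.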

Additional observations from a re-analysis of the deposited data

Results flagged for a closer look

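The list ratio of irradiated over control at 24 hours lay on opposite sides of 1 in different classes, each with an interval that left out 1. It was 0.846 in endothelial cells, 1.21 in FAPs, 1.14 in pericytes and smooth muscle cells, 5.11 in neutrophils and 1.64 in B cells. The directions in FAPs and in pericytes and smooth muscle cells changed with the weighting of cells, and maturity markers moved with the neutrophil and B cell ratios. In endothelial cells the ratio also changed side with time, from 0.846 at 24 hours to 1.52 at 56 days. With 1 library per group these differences were not tested.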

How the results depend on the processing

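No paired analysis was possible because each group was 1 library, and for the same reason no replicate could be left out. Of the endothelial values recomputed under alternatives, 49 stayed within the interval of the stated value (counts within 1.5 times) and 11 moved, none to the other side of 1. Without Ifitm3 and Bst2 the list ratios were 0.767 and 1.40, the ratios in remaining cells 0.820 and 1.29, and those in high cells 1.29 and 1.23, at 24 hours and 56 days. A fold of 2 left 5 members lower at 24 hours and 6 higher at 56 days, as its construction demands. With thinning to 2000 UMIs the 56-day ratios were 1.36 in remaining and 1.25 in high cells, and with at least 5 gate UMIs the 24-hour ratio in high cells was 1.42. Ratios of high-cell shares ran from 0.350 to 0.555 at 24 hours and from 1.35 to 2.09 at 56 days over all settings, another seed included. In other classes 78 values stayed, 25 moved and 4 reversed: the 24-hour FAP ratio with cells weighted equally (0.989), and the 24-hour ratio in pericytes and smooth muscle cells with a strict gate (0.994), equal weights (0.831) or no endothelial UMI (0.907). The last of these rests on 20 control cells, under the minimum of 25. The cause of the reversals was not tested. Leaving out cells with an endothelial UMI, and barcodes found in more than 1 library, was chosen after seeing the data. The strict gate left too few satellite cells for a value. Cell number, at 25 to 93 in most other classes, limits what can be said outside the endothelium.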

Other observations

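Erythroid cells also met the rule for interferon-high cells, at 6 of 49 in the 24-hour control and 7 of 85 in the 56-day control (12.2% and 8.24%). Their member UMIs came largely from Isg15 and Rsad2, and Ifit3 had 0 UMIs in the 24-hour control. Their irradiated libraries held under 25 cells, and no comparison is given.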
